A study of Drosophila melanogaster with 4 samples.

Results

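The genes described here are 35 muscle genes, chosen by name: the proteins of the sarcomere, the muscle actins and troponins, and regulators of muscle development. All 35 were found by their symbols among the 17103 genes of the deposited table. They were measured in gonads that had been sorted from late Drosophila embryos, a tissue made of germ cells and somatic gonad cells. 33 of the 35 genes were read, and 2, Act88F and nau, had no read in any library.

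Muscle contracts by the sliding of myosin thick filaments along actin thin filaments within a repeated unit, the sarcomere, which Z-discs bound on either side. Calcium released into the cell binds troponin C, and the troponin and tropomyosin complex on the thin filament then lets myosin act. In the fly embryo the body wall muscles form by fusion of myoblasts under the control of transcription factors such as Mef2, and they are contracting by the end of embryogenesis, while another set of contractile genes is used mainly in the adult flight muscle.

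Control embryos carried vas-GFP, a transgene that marks germ cells, and the other embryos carried vas-GFP together with the Phf7 allele DN18, so the marker was shared by both groups. Embryos of both genotypes and both sexes were of stage 17, aged 18 to 22 h and kept at the same temperature. They were broken up mechanically without enzymes, after which GFP-positive particles, mostly whole gonads, were collected by FACS. There were 2 biological replicates per genotype. Whole gonads were sorted and not single cells, so what adhered to a gonad, or was collected with it, could enter the sample. In RNA of a bulk sample, fewer cells of a type and less RNA per cell cannot be told apart.

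The libraries read only the 3′ end of each polyadenylated RNA, and the table gives the mean normalized count of each gene over the 4 libraries. Whole reads of each library were recovered from this mean for genes with a mean count up to 1000, 11208 of the 12679 genes above 0. These reads numbered 1842411 and 1536698 in the control libraries, called control a and control b, and 2130832 and 2051338 in mutant a and mutant b. Within a genotype, a is the library in which 1 read adds less to the mean. The letters carry no replicate number and pair nothing across genotypes. A normalized read is a read count divided by the size factor of its library. Phf7, the mutated gene, gave 749, 495, 9 and 44 reads in control a, control b, mutant a and mutant b, and whether DN18 removes the part of the gene that was read is not known. Its log2 difference was -5.16 (standard error 0.84, adjusted p = 0.537 from limma). Germ cell genes were read in all libraries. Over 9 tested genes they summed to 4439, 4326, 4640 and 4653 normalized reads in control a, control b, mutant a and mutant b. Genes of the somatic gonad summed to 4506, 4510, 3679 and 3394 in the same libraries over 8 tested genes. The germ cell sums were thus higher in both mutants and the somatic gonad sums lower, and neither was tested. They cover part of each list only. Left out, with mean counts over 1000, were 5 germ cell genes, vas, piwi, tud, ovo and bru1. The same held for 3 genes of the somatic gonad, tj, bnb and fax.

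Reads were recovered for 30 of the 35 muscle genes. 3 genes, Tm1, Msp300 and how, had mean counts over 1000, and only their means are given. Of the 30, the 26 with a mean count of at least 10 were tested together with all other such genes, 7653 in all. The other 4, Act79B, TpnC41C, TpnC4 and Unc-89, had mean counts between 1.05 and 4.97 and are given as reads. Symbols are those of the deposited table, and positions are those of the Ensembl annotation of BDGP6.54, in dm6 coordinates. Unc-89 is named Obsc in that annotation.

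The muscle genes mostly differed more between libraries of the same genotype than between the genotypes. Control b and mutant a held high levels of most of them, and control a and mutant b held low levels. The 26 tested genes summed to 3354 normalized reads in control a, 6407 in control b, 8557 in mutant a and 3731 in mutant b. These sums were 0.179%, 0.343%, 0.453% and 0.204% of the recovered reads of each library. Recovered genes hold only 17.4% of the mean total, and the sums leave out Tm1, Msp300 and how. The percentages are thus no share of muscle genes in a whole library. The high library of each genotype held more reads of the 26 genes than either low library.

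**Figure D1:**
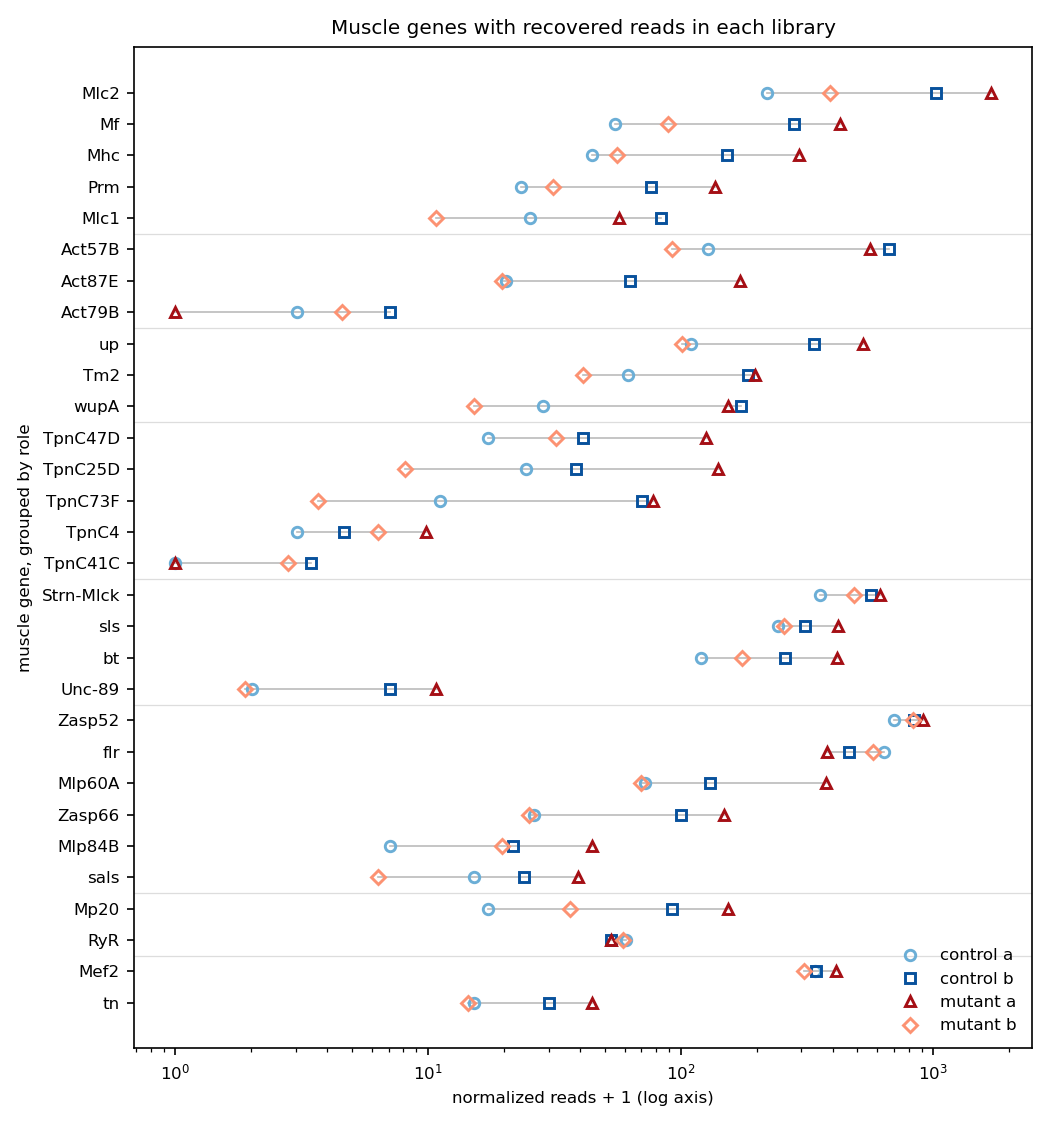
Normalized reads (plus 1, log axis) of the 30 muscle genes with recovered reads, grouped by role, with 1 symbol for each of the 4 libraries and a grey line from the lowest to the highest. In most rows control b and mutant a stand to the right of control a and mutant b. The rows of flr and RyR, and of the little read Act79B, TpnC41C and TpnC4, do not follow this order.

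The genes of the thick filament, which myosin builds, all had this pattern. Mlc2, the regulatory light chain of myosin (3R, 30171438 to 30174551, minus strand), was read 216 times in control a, 845 in control b, 1912 in mutant a and 438 in mutant b. Mhc, the heavy chain (2L, 16766566 to 16788766, plus strand), was read 43, 125, 332 and 62 times in the same libraries. In both genes mutant a was the highest and control a the lowest, and control b lay between mutant b and mutant a.

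Mf, which encodes the thick filament protein myofilin, was read 53, 231, 482 and 99 times in control a, control b, mutant a and mutant b. Prm, the gene of paramyosin in the filament core, was read 22, 62, 153 and 34 times. Both repeated the order of Mlc2. Mlc1, the other myosin light chain, was read 24 and 68 times in control a and b but 63 and 11 times in the mutants, so here control b was the highest and mutant b the lowest. The highest library exceeded the lowest by 6.06-fold to 8.43-fold over these 5 genes in normalized reads.

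The log2 differences of mutant minus control over these 5 genes ran from -0.90 for Mlc1 to 0.77 for Mlc2, where 0 means no difference. Their standard errors were 1.10 for Mlc1 and 1.15 for Mlc2, and no adjusted p was under 0.985 (limma on log2 of normalized reads plus 1). For Mlc2 the gap between the control libraries was 2.22 and that between the mutant libraries 2.12 on the same log2 scale, each larger than its genotype difference. The mean normalized level of Mlc2 was 623 in controls and 1042 in mutants, with overlapping values.

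Of the muscle actins, Act57B and Act87E are expressed in the larval body wall muscles, Act79B in adult leg muscles and Act88F in the indirect flight muscles. Act57B (2R, 20944021 to 20946431, plus strand) was read 125 times in control a, 548 in control b, 632 in mutant a and 103 in mutant b. Act87E (3R, 13425983 to 13428375, plus strand) was read 19, 51, 192 and 21 times. Both larval actins were thus high in control b and mutant a, and the groups overlapped.

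The adult actins were almost absent. Act79B was read 2, 5, 0 and 4 times in control a, control b, mutant a and mutant b. Act88F had 0 reads over the 4 libraries, which allows up to 3 reads by counting error. Reads that match several of these near-identical genes could have been lost or split in the counting. The log2 differences were -0.36 for Act57B (standard error 1.31) and 0.70 for Act87E (standard error 1.31), with adjusted p of 0.991 and 0.985 from limma.

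Genes of the thin filament switch had the same high and low libraries. up, which encodes troponin T (X, 13593474 to 13602578, minus strand), was read 107 times in control a, 278 in control b, 596 in mutant a and 113 in mutant b. wupA, which encodes troponin I (X, 18105568 to 18116922, minus strand), was read 27, 142, 173 and 16 times. Tm2, a tropomyosin, was read 60, 151, 221 and 45 times. In all 3 genes the low values were those of control a and mutant b.

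After normalization wupA was slightly higher in control b (172.5) than in mutant a (153.2), whereas up was higher in mutant a (527.9) than in control b (337.7). The genotype differences were 0.27 for up, -0.53 for wupA and -0.25 for Tm2 on the log2 scale, with standard errors of 1.08, 1.56 and 1.03 and adjusted p up to 0.992 from limma. Tm1, the neighbouring tropomyosin gene, also makes proteins outside muscle. It had a mean count of 3001 over the 4 libraries as the authors' mean, too high for its reads per library to be recovered.

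Of the 5 troponin C genes, which encode the calcium sensor of the thin filament, TpnC73F and TpnC25D had wider ranges than any other tested muscle gene. TpnC73F (3L, 17046063 to 17048390, plus strand) was read 10 times in control a, 57 in control b, 87 in mutant a and 3 in mutant b. Its normalized level was 28.8-fold higher in mutant a than in mutant b and 6.81-fold higher in control b than in control a. The 3 reads of mutant b carry a large counting error.

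TpnC25D was read 23, 31, 157 and 8 times in control a, control b, mutant a and mutant b, so the libraries of mutants stood 19.5-fold apart in normalized reads and those of controls 1.61-fold. Its exons overlap those of tkv, which runs in the other direction, so its reads are uncertain. TpnC47D was read 16, 33, 141 and 35 times, and its value in mutant b was closer to that in control b than to the low control library. TpnC41C and TpnC4, the latter used in flight muscle, were barely read. TpnC41C was read 0, 2, 0 and 2 times and TpnC4 2, 3, 10 and 6 times. The log2 differences of the 3 tested genes were -0.73, 0.14 and 1.26 for TpnC73F, TpnC25D and TpnC47D, and their standard errors were 1.89, 1.54 and 0.89 (adjusted p from 0.985 to 0.994, limma).

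Among the tested genes of large elastic and kinase-like sarcomere proteins, bt varied more between libraries than sls and Strn-Mlck. bt, the gene of projectin (4, 724400 to 776474, plus strand), was read 117 times in control a, 213 in control b, 470 in mutant a and 195 in mutant b. sls, a titin-like protein (3L, 2039681 to 2115611, minus strand), was read 238, 254, 474 and 287 times. Strn-Mlck, which encodes stretchin and a myosin light chain kinase, was read 350, 466, 694 and 546 times.

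The highest library of bt exceeded the lowest by 3.50-fold in normalized reads, against 1.74-fold for sls and 1.73-fold for Strn-Mlck. All 3 were lowest in control a and highest in mutant a. Unc-89, the obscurin of the M-line, was read only 1, 5, 11 and 1 times. The log2 differences were 0.61 for bt (standard error 0.66), 0.26 for sls (0.38) and 0.28 for Strn-Mlck (0.36), each with an adjusted p of 0.985 from limma.

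At the Z-disc, Zasp66, Mlp60A and Mlp84B followed the filament genes and Zasp52 hardly varied. Zasp66, a PDZ domain protein, was read 25 times in control a, 82 in control b, 167 in mutant a and 27 in mutant b. Mlp60A and Mlp84B, muscle LIM proteins, were read 70, 107, 423 and 77 times and 6, 17, 49 and 21 times. Zasp52, a PDZ and LIM domain protein that is also found at integrin adhesions outside muscle, was read 687, 691, 1028 and 930 times, and its normalized levels stayed between 698.1 and 910.6.

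sals, which acts at the pointed ends of thin filaments, was read 14 times in control a, 19 in control b, 43 in mutant a and 6 in mutant b. flr, a partner of cofilin in the disassembly of actin filaments in many cell types, went the opposite way, with 625, 380, 429 and 646 reads. After normalization flr was high in control a (635.1) and mutant b (575.5) and low in control b (461.7) and mutant a (380.0). Among the tested members of this group the largest log2 difference was that of Mlp84B at 1.26 (standard error 0.77, adjusted p = 0.964, limma). Msp300, a giant nesprin that anchors nuclei and works outside muscle as well, had a mean count of 2485 as the authors' mean.

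RyR, the calcium release channel of the sarcoplasmic reticulum, and Mp20, a calponin-like muscle protein, behaved unlike each other. RyR was read 59, 43, 59 and 65 times in control a, control b, mutant a and mutant b, or 52.2 to 60.0 after normalization. Mp20 was read 16, 75, 173 and 40 times, with a 9.43-fold range after normalization. Their log2 differences were -0.02 (standard error 0.26) and 0.92 (standard error 1.19), with adjusted p of 0.994 and 0.985 from limma.

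Among the regulators, Mef2 was read at a steady level, tn with the filament genes, and nau not at all. Mef2, the transcription factor of muscle differentiation (2R, 9913496 to 9958858, minus strand), was read 335 times in control a, 281 in control b, 462 in mutant a and 345 in mutant b. Its normalized levels of 307.4 to 409.2 differed by 1.33-fold at most, while those of Mhc differed by 6.73-fold. tn, a TRIM protein that keeps the sarcomere stable, was read 14, 24, 49 and 15 times.

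nau, the fly relative of MyoD, had 0 reads over the 4 libraries, which allows up to 3. how, an RNA-binding protein of muscle and tendon cells that is also expressed in glia and in germline stem cells, had a mean count of 2024 as the authors' mean. The log2 differences were 0.06 for Mef2 (standard error 0.28) and 0.24 for tn (standard error 0.74), with adjusted p of 0.992 and 0.991 from limma.

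In none of the 26 tested genes did the genotype difference exceed both gaps between libraries of the same genotype. In 4 it lay between the gaps. 0 of 26 had an adjusted p under 0.05, against 0 of 7653 genes, or 0%, in the same limma fit. 0 of 26 had an unadjusted p under 0.05, where 5.87% of all genes tested had (449 genes), and limma with voom weights likewise called 0 genes, with 391 at an unadjusted p under 0.05. In 0 of 26 genes did both control values lie on one side of both mutant values, against 32.9% of all genes tested. A comparison of 2 against 2 cannot give an exact two-sided permutation p under 0.333. The median log2 difference over the 26 genes was 0.25, with 18 of 26 above 0, beside 0.01 over all genes. It was -0.24 without control a, 0.80 without control b, -0.48 without mutant a and 1.35 without mutant b, so its sign rested on which libraries were used. With 1 library against 2, values fail to overlap more easily. Without control a they did not overlap in 4 of 26 genes, against 63.4% of all genes tested. Without control b this was so in 13 of 26, against 71.3%, without mutant a in 13 of 26, against 60.4%, and without mutant b in 22 of 26, against 70.6%. Without mutant b 2 genes, Mlp60A and TpnC25D, had an unadjusted p under 0.05, where 4.82% of all genes had, and without mutant a 1 gene, TpnC25D, where 3.44% had. The log2 difference of TpnC25D was 2.19 in the former and -1.92 in the latter fit.

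In 22 of the 26 genes the genotype difference was smaller than the gap between the control libraries and smaller than the gap between the mutant libraries, and in none was it larger than both. Over all genes tested 48.2% had a genotype difference smaller than both gaps. The median absolute size on the log2 scale was 0.45 for the genotype difference, 1.59 for the gap between controls and 2.19 for the gap between mutants. These measures are unlike, since a genotype difference is taken between means of libraries and a gap between single libraries. Gaps therefore tend to be the wider even where genotype has no effect.

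**Figure D2:**
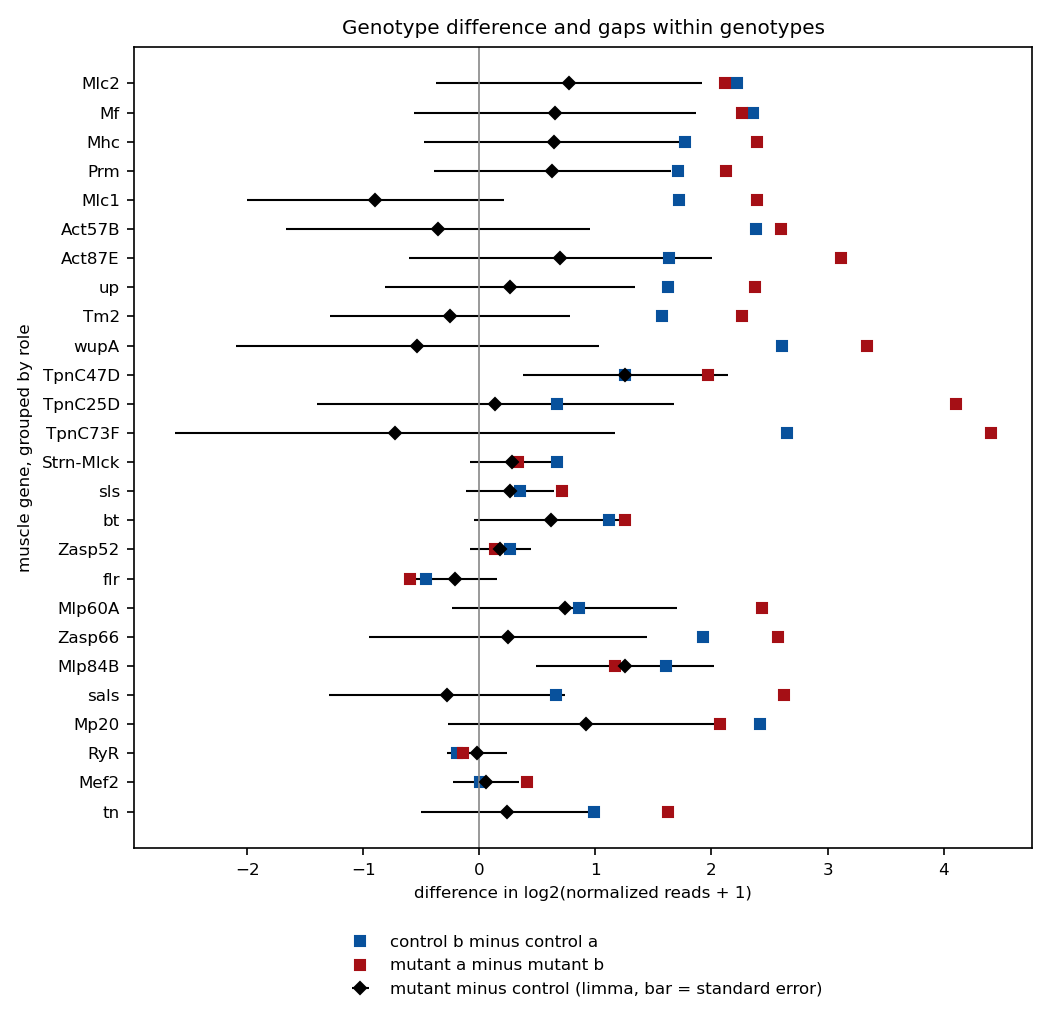
Differences in log2(normalized reads + 1) for the 26 tested muscle genes: mutant minus control from limma with its standard error (black), control b minus control a (blue) and mutant a minus mutant b (red). For most filament genes the blue and red symbols lie to the right of the black one, and for flr and RyR both lie left of 0.

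The order of the libraries was shared by most of the genes. In 24 of 26 the higher control library was control b and the higher mutant library mutant a, an order that 35.9% of all genes tested had. Mutant a was the highest library in 21 genes, control b in 3 and control a in 2. Mutant b was the lowest in 13 genes and control a in 11. The 2 exceptions to the shared order were flr and RyR. This order was known from earlier results of the same data, and 26 genes read in the same libraries are not 26 independent observations of it.

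The size of the spread differed between genes, both within and between roles. The medians of the roles ran from 1.74-fold for the tested giant or kinase-like genes to 19.5-fold for the tested troponin C genes. Within the Z-disc and filament end group the spread ran from 1.30-fold to 7.13-fold. The highest library exceeded the lowest by a median of 6.44-fold over the 26 genes and 1.79-fold over all genes tested. 18 genes had a range of over 4-fold, and these were all 5 tested thick filament genes, both larval actins, all 3 tested genes of troponin T, troponin I and tropomyosin, all 3 tested troponin C genes, Zasp66, Mlp60A, Mlp84B, sals and Mp20. 6 genes had a range under 2-fold, namely sls, Strn-Mlck, Zasp52, flr, Mef2 and RyR. bt and tn lay between, at 3.50-fold and 3.25-fold. In the order of spread over all genes tested, TpnC73F stood at percentile 95.2 and wupA at 91.9, while Mef2 stood at 15.7, Zasp52 at 13.3 and RyR at 2.50.

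Several filament genes kept a nearly fixed ratio to each other while their levels moved. Mf stood at 0.245, 0.273, 0.252 and 0.226 of the normalized reads of Mlc2 in control a, control b, mutant a and mutant b, a range of 1.21-fold. The ratio of Mp20 to Mlc2 ran from 0.0741 to 0.0913, that of Prm from 0.0734 to 0.102 and that of Mhc from 0.142 to 0.199. Of the 25 genes set against Mlc2, these 4 together with up and Zasp66 stayed within 2-fold in all 4 libraries. The ratios of the others ranged more widely, up to 12.9-fold for flr. How many of all genes stayed within 2-fold of Mlc2 was not computed. Such ratios describe how 2 genes moved together and are no comparison of their levels.

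For other genes the ratio to Mlc2 differed more between libraries. Mlc1 stood at 0.111 and 0.0805 of Mlc2 in control a and b and at 0.0329 and 0.0251 in mutant a and b, from counts as low as 11 reads in mutant b. Act57B had ratios of 0.579 and 0.649 in control libraries, against 0.331 and 0.235 for the mutants. For Tm2 the control ratios were 0.278 and 0.179, and the mutant ratios 0.116 and 0.103. In 7 genes, Act57B, Mlc1, up, wupA, Tm2, TpnC73F and Zasp66, both mutant ratios lay below both control ratios. In 1 gene, Mp20, both lay above, and in 17 the groups overlapped. Of these 8 genes up, Zasp66 and Mp20 are among those that stayed within 2-fold. In some the nearest control and mutant ratios were almost equal. They were 0.0463 in control a, from 10 reads, and 0.0455 in mutant a for TpnC73F. For up they were 0.329 in control b and 0.312 in mutant a, and for Mp20 0.0888 in control b and 0.0905 in mutant a. Over all genes tested 9.74% had ratios to Mlc2 that did not overlap between genotypes, and 7.25% had lower ratios in both mutants. A gene of constant level takes the overlap of Mlc2 itself, so nothing is read from the difference between these shares and the counts. The ratios were formed after the values had been seen, with Mlc2 as common denominator, and no test was made on them.

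**Figure D3:**
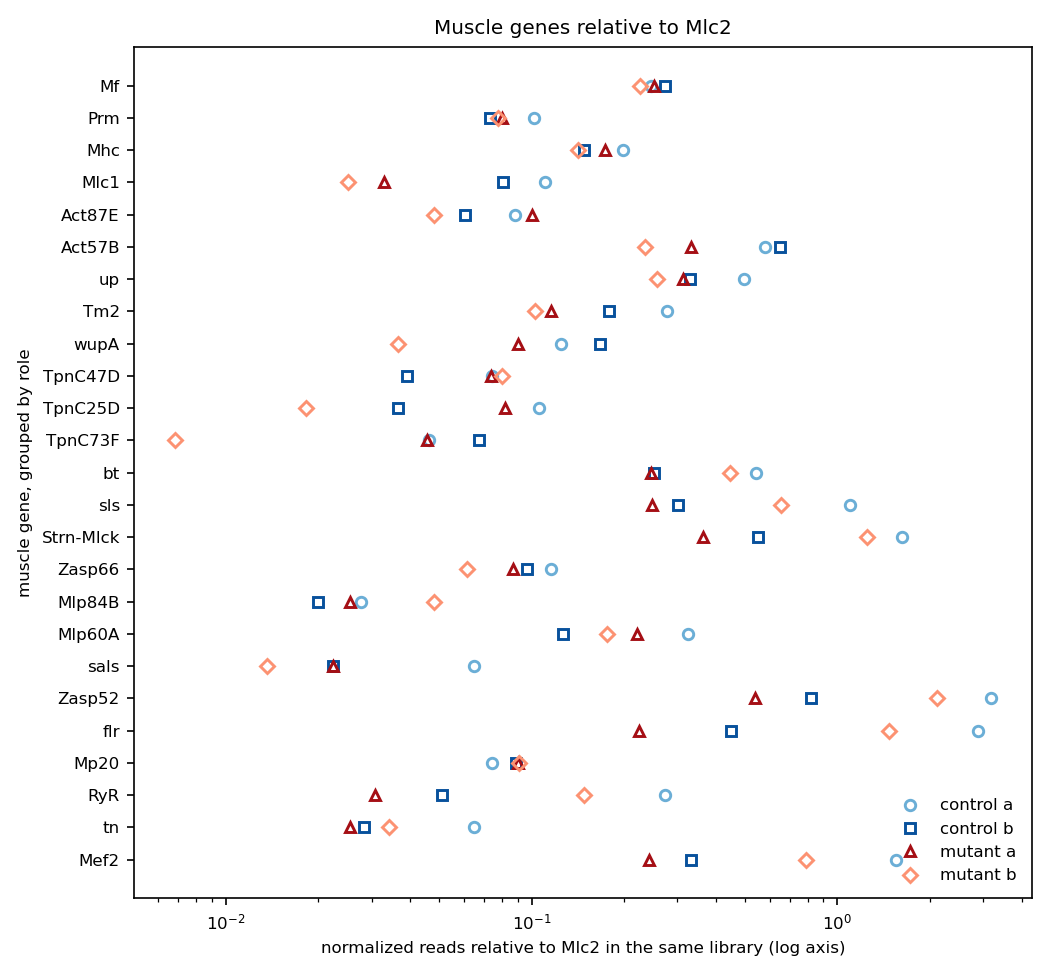
Normalized reads of 25 muscle genes relative to Mlc2 in the same library (log axis), with 1 symbol for each of the 4 libraries. Mf, Prm, Mhc and Mp20 keep their ratio within 1.41-fold, Mlc1 and Act57B lie lower in both mutants, and flr, RyR, Mef2 and Zasp52, whose own levels varied little, spread widely.

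Markers of neurons and midgut moved with the muscle genes. Each gene's log2 values were centred on their mean, and the median of the 26 muscle genes was then -0.90 in control a, 0.47 in control b, 1.27 in mutant a and -0.78 in mutant b. The 9 tested neuron markers, none of which was at 0, had medians of -1.46, 0.67, 1.67 and -1.03 and summed to 734, 2029, 4105 and 1081 normalized reads. The 7 tested midgut markers, digestive enzymes in the main, had medians of -2.22, 2.03, 1.47 and -1.05 and summed to 199, 3147, 3970 and 505. All 9 neuron and all 7 midgut genes shared the order of the libraries, with the same high and low library in each genotype. Their part in the spread of the muscle genes was not tested.

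elav, which marks neurons, was read 348, 506, 1078 and 469 times in control a, control b, mutant a and mutant b, and the neuronal surface protein Appl 79, 312, 932 and 262 times. The midgut proteases epsilonTry and Jon25Bi were read 31, 830, 730 and 195 times and 85, 207, 1969 and 143 times. The 5 hemocyte markers tested had medians of -0.54, 0.51, 0.52 and -0.99 and the shared order in 3 of 5, and crq and Sr-CI, scavenger receptors of these blood cells, were read 252, 172, 348 and 335 times and 61, 154, 147 and 49 times. Of 6 fat body markers, 3, Lsp1alpha, Fbp1 and Fbp2, were at 0 and none could be tested. 4 glia markers and 4 markers of epidermis and trachea were tested too, and 3 of each had the order of the muscle genes. Medians were -0.587, -0.135, 1.125 and -0.322 for glia in control a, control b, mutant a and mutant b. Those of epidermis and trachea were -0.779, 0.966, 0.277 and -0.615. moody and Gs2 of glia were read 392, 253, 308 and 383 times and 82, 232, 280 and 65 times. Cpr67Fb, a cuticle protein, and grh, a factor of the epidermis, were read 228, 326, 37 and 33 times and 37, 59, 87 and 21 times.

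Of the gonad genes 4 of 9 for germ cells and 3 of 8 for the somatic gonad had this order, beside 35.9% of all genes. Control and mutant values did not overlap in 5 of 9 germ cell genes and 4 of 8 somatic gonad genes, beside 32.9% of all genes. The 9 tested germ cell genes had medians of -0.04, -0.01, 0.16 and 0.10 in control a, control b, mutant a and mutant b. tej and aub, a pair of piRNA pathway genes, were read 785, 822, 1189 and 1061 times and 833, 613, 1108 and 1047 times. The 8 tested genes of the somatic gonad had medians of 0.23, 0.14, -0.17 and -0.02. Among them Fas3, an adhesion protein, was read 1217, 865, 889 and 1016 times and esg, a transcription factor, 948, 954, 990 and 704 times. None of the lists of other tissues or of the gonad had a gene past an adjusted p of 0.05, and 1 gene of epidermis and trachea, Cpr67Fb, and 1 of the somatic gonad, wun2, had an unadjusted p under 0.05, beside 5.87% of all genes. Their log2 differences were -3.25 for Cpr67Fb and 1.57 for wun2.

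**Figure D4:**
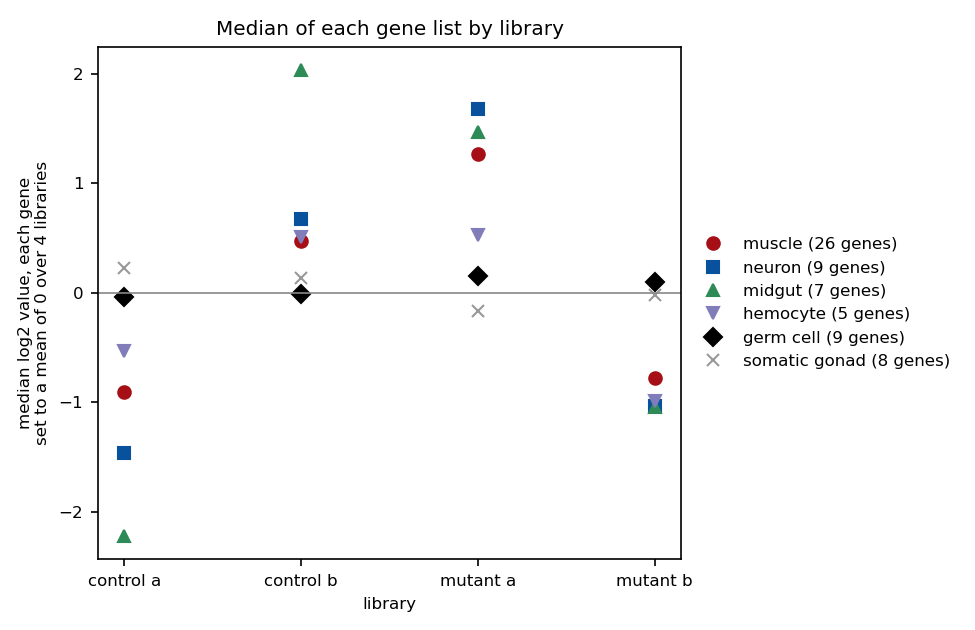
Median of the muscle, neuron, midgut, hemocyte, germ cell and somatic gonad lists in each library, as log2 values centred on each gene's mean. The lists of glia, of epidermis and trachea and of further muscle genes are not shown. Muscle, neuron, midgut and hemocyte lists lie above 0 in control b and mutant a and below 0 in control a and mutant b, while the germ cell and somatic gonad lists stay within 0.23 of 0.

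Other muscle genes were described in the same way. A further list of 40 genes of the contractile apparatus, muscle attachment and the muscle membrane had 36 in the table, of which 6, Lasp, SclA, SclB, fln, GluRIID and GluRIIE, were at 0 and 21 were tested. 0 of 21 passed an adjusted p of 0.05, and the median log2 difference was 0.07. 3 genes, named after their values were seen, had an unadjusted p under 0.05, beside 5.87% of all genes, namely Dys (dystrophin) and GluRIIA (a glutamate receptor subunit), higher in mutants, and kel, lower. 12 of 21 had the shared order of libraries, beside 35.9% of all genes. The centred medians of this list were -0.157, 0.157, 0.487 and -0.229 in control a, control b, mutant a and mutant b. rhea, the talin that links integrins to actin in many tissues, was read 771, 872, 1278 and 954 times in control a, control b, mutant a and mutant b. stck, another protein of integrin adhesions, was read 1128, 702, 686 and 997 times.

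A list of 35 genes of muscle specification and myoblast fusion had 34 in the table, with twi, eve, lbe and lms at 0, and 13 others with a mean count above 0 and below 10. Of the 16 tested, 0 passed an adjusted p of 0.05, 1 had an unadjusted p under 0.05, beside 5.87% of all genes, and the median log2 difference was -0.21. 7 of 16 had the shared order, beside 35.9% of all genes. The centred medians of this list, 0.091, 0.006, 0.022 and -0.215 in control a, control b, mutant a and mutant b, did not follow that order. bin, a transcription factor of the visceral mesoderm, was the 1 gene with a low p, with 841, 871, 504 and 587 reads in control a, control b, mutant a and mutant b. Its control values both lay above its mutant values (log2 difference -0.98, standard error 0.28, adjusted p = 0.784, limma). mbc, a factor of myoblast fusion, was read 425, 253, 291 and 307 times.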

How the data were processed

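RNA of sorted gonads was sequenced by the authors as 3′-end libraries, mapped to dm6 with HISAT2, counted per gene with htseq-count and compared with DESeq2. Neither versions nor a strand setting is given in the sources used here, so reads of genes that share exons with another gene (9 of the 35: Act57B, Act87E, TpnC25D, sls, sals, Strn-Mlck, Tm1, Msp300 and nau) are uncertain. The deposited table has 1 mean per gene, a signal in normalized counts over all 4 libraries. It also holds the authors' log2 fold changes, their errors and p-values. Of these the deposited log2 column served only by its sign at genes with 1 read in all, to tell which library belongs to which genotype, with the direction of control over mutant as the study describes it.

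A mean is a sum of whole reads, each multiplied by what 1 read adds in its library (0.254 and 0.304 for control a and b, 0.221 and 0.223 for mutant a and b). For 11208 of 11208 genes with a mean count up to 1000 exactly 1 set of 4 whole numbers gave the printed mean within its last digit, as did any set for 9 of 1500 decoy means. These genes hold 17.4% of a mean total of 10687188. Size factors were 0.984, 0.823, 1.13 and 1.12. Reads per library are thus computed, and limits on counts of 0 cover counting error only.

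limma 3.58.1 (R 4.3.3) was run on log2(normalized reads + 1) of the genes with mean counts from 10 up, without a block, with Benjamini-Hochberg adjustment over all of them, and was tested on simulated data. Fold changes on this scale understate those of low genes. Alternatives were other pseudocounts, filters and scalings, voom weights, a trend and leaving out each library. The members and lists were chosen with earlier results of these data known. All members are described, and from other lists the 2 most read tested genes are named where none passed the threshold.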

Additional observations from a re-analysis of the deposited data

How the results depend on the processing

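No muscle gene passed an adjusted p of 0.05 under any alternative that kept all 4 libraries (lowest 0.893, limma). The mutated gene Phf7 did not pass in the main limma fit either (adjusted p = 0.537). That no muscle gene passed under the alternatives therefore shows little about these genes. With all 4 libraries kept, 8 alternatives gave 203 values for the tested genes, of which 2 turned direction, both when libraries were scaled to germ cell genes: Mef2 to -0.10 and TpnC25D to -0.011. That scaling moved the median of all genes to -0.14 and that of the muscle genes to 0.10. With no filter on low values the genotypes did not overlap in 1 of 30 muscle genes, TpnC4, from 2, 3, 10 and 6 reads. When scaled to the total of recovered reads they did not overlap in 1 of 26, Zasp52. The share over all genes was 32.9% in the main fit and was not computed for these 2 settings. At a mean count of at least 50, 2 genes of the whole table, CG31191 and CR45822, passed an adjusted p of 0.05. The cause of these changes was not tested. No paired analysis was possible because the recovered libraries carry no replicate number.

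Leaving out 1 library at a time gave 4 to 22 of 26 genes without overlap (60.4% to 71.3% of all genes), 0 to 2 with an unadjusted p under 0.05 (3.44% to 5.53% of all genes), and a median log2 difference of -0.48 to 1.35. A genotype with 1 library left is then assumed to vary like the other. 23 of 26 genes turned direction in at least 1 of these fits, with ranges of log2 differences of -1.66 to 0.94 for Act57B, -0.86 to 2.26 for Act87E, -0.15 to 0.26 for Mef2, -0.53 to 1.83 for Mf, -0.56 to 1.84 for Mhc, -2.09 to 0.30 for Mlc1, -0.34 to 1.89 for Mlc2, -0.48 to 1.95 for Mlp60A, -0.29 to 2.12 for Mp20, -0.43 to 1.69 for Prm, -0.12 to 0.073 for RyR and -0.05 to 0.62 for Strn-Mlck. They were -1.38 to 0.88 for Tm2, -1.92 to 2.19 for TpnC25D, -2.93 to 1.48 for TpnC73F, -1.04 to 1.53 for Zasp66, -0.014 to 1.24 for bt, -0.51 to 0.088 for flr, -1.59 to 1.03 for sals, -0.10 to 0.62 for sls, -0.58 to 1.05 for tn, -0.92 to 1.46 for up and -2.20 to 1.14 for wupA. TpnC47D, Mlp84B and Zasp52 did not turn. Depth limits the genes with few reads most, such as TpnC73F with 3 reads in mutant b.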
